A study of Mus musculus with 2 samples.

Results

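Vesicular neurotransmitter transporter genes are described here by where they lie among the chromosome boundaries of mature olfactory sensory neurons. The 8 genes are a list chosen by function, taken from 21755 protein-coding genes, each placed by its transcription start site (TSS, the 5′ end of the gene) in GENCODE release M21 on the mouse build GRCm38. The contacts came from in situ Hi-C, which joins and counts DNA that lies close together inside fixed nuclei. Per the labels, the neurons were taken by flow sorting from olfactory epithelium, and the mice were adults of both sexes whose strain is not specified. Both replicates were OMP-Cre; Ldb1-KO, in which Cre driven by Omp, a marker gene of mature olfactory neurons, deletes Ldb1. Ldb1 encodes an adaptor that holds transcription factors together at enhancers. There was 1 group of 2 biological replicates of 1000000 cells each, fixed in 1% formaldehyde and digested with DpnII, and no control group was analysed here. Boundaries were called on the pooled contacts of both replicates, so no value below carries a replicate error, and there is no comparison of knockout with wild-type neurons. Such a list holds no expression level, so neither the cell type nor the loss of Ldb1 could be checked in it.

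Vesicular transporters load neurotransmitter into synaptic vesicles, driven by the electrochemical proton gradient that the proton pump of the vesicle membrane sets up. The Slc18 transporters exchange their substrate for protons, whereas the vesicular glutamate and nucleotide transporters of the Slc17 family are driven mainly by the membrane potential. Which transporter a neuron makes largely sets which transmitter it releases. Olfactory sensory neurons are glutamatergic, and the vesicular glutamate transporter encoded by Slc17a6 is known as the main one at their terminals in the olfactory bulb. A boundary is a position that few contacts cross, so that DNA on either side meets less often than DNA within one interval. CTCF, a DNA-binding protein, halts the cohesin complex as it extrudes loops, and the direction of its site matters for which side is halted.

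The deposited list held 7610 boundaries of 5 kb on 20 chromosomes, 4022 of them classed as strong and 3588 as weak. Strength is the authors' score for each boundary and is used here only to describe and rank boundaries within the list. It ran from 0.2 to 4.13 over the list with a median of 0.538, and every strong boundary scored at least 0.5. The 8 genes were bordered by 16 flanking boundaries, and a further boundary bin held the TSS of Slc17a8, which gave 17 different boundaries.

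The sequences below carry the CTCF consensus at the 3 of these boundaries that had 2 matches each within 10 kb. They are shown because the direction of the consensus can be set against the side on which the gene lies. Each is 52 bases of GRCm38, written 5′ to 3′ along the strand of the match, with the consensus match in capitals. A match is a stretch of sequence and not a measurement of binding.
Slc17a6, left boundary, chr7:51614566-51614617, forward strand: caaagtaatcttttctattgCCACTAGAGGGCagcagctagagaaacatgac
Slc17a6, left boundary, chr7:51618107-51618158, forward strand: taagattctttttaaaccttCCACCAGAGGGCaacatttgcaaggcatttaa
Slc32a1, right boundary, chr2:158642037-158642088, reverse strand: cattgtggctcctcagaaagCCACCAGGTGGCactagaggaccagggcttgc
Slc32a1, right boundary, chr2:158653190-158653241, reverse strand: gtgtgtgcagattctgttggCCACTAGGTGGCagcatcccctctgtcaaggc
Slc18a2, left boundary, chr19:59239612-59239663, forward strand: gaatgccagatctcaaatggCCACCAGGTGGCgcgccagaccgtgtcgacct
Slc18a2, left boundary, chr19:59239656-59239707, forward strand: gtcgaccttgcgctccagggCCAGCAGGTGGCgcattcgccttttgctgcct

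The 2 genes whose TSS lay nearest to a boundary both encode vesicular glutamate transporters, and the promoters are shown for that reason. Both come from RefSeq (GRCm38.p6), cover 250 bases before to 50 bases after the RefSeq start, and are written 5′ to 3′ along the gene's strand. RefSeq starts can differ from the GENCODE starts used for distances. Capitals mark a GGGCGG match (on either strand) in the first and a CCCNNGGG match in the second.
Slc17a6, chr7:51621580-51621879, forward strand: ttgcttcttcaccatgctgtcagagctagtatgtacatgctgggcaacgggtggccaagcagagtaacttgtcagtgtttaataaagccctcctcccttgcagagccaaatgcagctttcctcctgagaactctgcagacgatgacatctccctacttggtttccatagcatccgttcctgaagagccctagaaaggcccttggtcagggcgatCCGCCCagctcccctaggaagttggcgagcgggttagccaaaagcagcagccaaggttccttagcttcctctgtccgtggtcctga
Slc17a8, chr10:89621200-89621499, reverse strand: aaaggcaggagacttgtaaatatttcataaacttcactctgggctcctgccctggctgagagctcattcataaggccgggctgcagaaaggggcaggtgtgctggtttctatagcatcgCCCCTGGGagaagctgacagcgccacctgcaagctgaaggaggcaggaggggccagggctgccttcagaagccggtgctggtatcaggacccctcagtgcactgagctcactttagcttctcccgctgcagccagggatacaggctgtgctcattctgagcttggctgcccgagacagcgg

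Slc17a6, which encodes the glutamate transporter of olfactory sensory neurons, stood closest to the strongest of the 17 boundaries. It shared its interval with no other protein-coding TSS. Its TSS (chromosome 7, 51622006, forward strand; gene 51622006 to 51671119) lay 7.01 kb to the right of a strong boundary at 51610001 to 51615000 with a strength of 1.71, rank 413 of 7610. This boundary was upstream of the promoter, in sequence with no annotated gene. The flanking boundary on the right was at 51825001 to 51830000, 203 kb from the TSS, and scored 0.553, so it was just inside the strong class. Between them lay an interval of 210 kb, and Slc17a6 was the only protein-coding gene with a TSS in it. Of protein-coding genes with an interval 9.54% were alone in this way. Annotated genes of any type that overlapped the interval numbered 5, Slc17a6 included. The neighbours on the chromosome were Ano5, of the anoctamin family of membrane proteins, with a TSS 111 kb to the left, and Gas2, a cytoskeletal regulator, 240 kb to the right. A boundary stood between Slc17a6 and each of these neighbours. One of the consensus matches shown above lay inside the left boundary bin and the other 3.13 kb to its right, and both pointed towards Slc17a6. The interval also held an enhancer annotated by RefSeq, VISTA enhancer mm683 (51770962 to 51773465), 149 kb downstream of the TSS and outside the gene. RefSeq records activity in transgenic embryos for the midbrain (14 of 16), forebrain (13 of 16), hindbrain (10 of 16) and eye (9 of 16).

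Slc17a8, which encodes a glutamate transporter found with other transmitters in several neuron types, was the only one of the 8 genes with its TSS inside a boundary bin. Of all protein-coding TSSs 3.86% lay inside one. The bin was at chromosome 10, 89620001 to 89625000, was strong (0.659), and overlapped coding and untranslated exon sequence of the gene. The TSS (89621253, reverse strand; gene 89574020 to 89621253) was base 1253 of the bin. The gene body ran to the left, into an interval of 315 kb shared with Nr1h4, the bile acid receptor gene, 87.7 kb away, Gas2l3 (177 kb) and the anoctamin gene Ano4 (276 kb). On the right of the bin lay 440 kb with 4 protein-coding TSSs, of which that of Scyl2 was nearest at 65.0 kb. Both outer boundaries were weak. The left one (89300001 to 89305000, strength 0.488) lay in an intron of Ano4 and the right one (90065001 to 90070000, 0.468) in a coding exon of Anks1b. No exact match to the CTCF consensus lay within 10 kb of any of these 3 boundaries. RefSeq also gave Slc17a8 a start inside the gene (promoter chr10:89599766-89600065), which held TAATTA, as did the second RefSeq promoter of Slc17a6 (chr7:51624387-51624686).

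Slc17a7, which encodes the glutamate transporter of many cortical neurons, lay in the most crowded interval of the 8. Its TSS was at chromosome 7, 45163949 (forward strand; gene 45163949 to 45176142). The interval was 365 kb long and held 29 protein-coding TSSs including its own, more than or as many as for 95.6% of protein-coding genes. The nearest were Aldh16a1 (9.37 kb), Pih1d1 (9.65 kb), Gfy (15.6 kb), which encodes a Golgi protein of olfactory neurons, and the neuropeptide gene Pth2 (17 kb). The nearest boundary was strong (0.814; 45210001 to 45215000), 46.1 kb downstream, and overlapped exons and the TSS of Dkkl1. The left boundary (44840001 to 44845000, 0.563) was 319 kb away and overlapped exons of Il4i1 and Tbc1d17. Slc17a7 and Slc17a6 are on the same chromosome, 6.46 Mb apart, with 24 boundaries and 104 protein-coding TSSs between them.

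Slc17a9, which encodes a transporter that loads nucleotides such as ATP, was the farthest from a boundary of the 8, at 54.7 kb. Its TSS was at chromosome 2, 180725263 (forward strand; gene 180725263 to 180742280). The nearest boundary was weak (0.314; 180780001 to 180785000), the lowest strength of the 17, and lay 3.10 kb from the TSS of Bhlhe23, a transcription factor gene. The left boundary was strong (0.976; 180575001 to 180580000), 145 kb away and 1.30 kb from the TSS of Mrgbp. The interval of 200 kb held 8 protein-coding TSSs, those of Gid8 (15.1 kb), Dido1 (15.3 kb), Bhlhe23 (51.6 kb), Tcfl5 (82.6 kb), Col9a3 (127 kb), Ogfr (136 kb) and Mrgbp (144 kb) beside its own. A single CTCF consensus lay 0.325 kb left of the weak boundary, on the reverse strand, and so pointed towards Slc17a9.

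Slc32a1, which encodes the transporter for GABA and glycine of inhibitory neurons, had the shortest interval of the 8, at 125 kb. Of protein-coding genes 5.38% had an interval as short or shorter. Its TSS was at chromosome 2, 158610767 (forward strand; gene 158610767 to 158615748). The only other protein-coding TSS in the interval was that of Actr5, a chromatin remodelling gene, 14.1 kb away. The nearest boundary was strong (0.670; 158645001 to 158650000), 34.2 kb downstream, and intergenic. The left boundary was weak (0.379; 158515001 to 158520000), 90.8 kb upstream, in an intron of Arhgap40. Between strong boundaries alone the interval of Slc32a1 was 245 kb, and those of Slc18a1 (160 kb) and Slc17a6 (210 kb) were shorter. Both consensus matches at the right boundary were on the reverse strand, 2.93 kb to its left and 3.21 kb to its right. Both therefore pointed towards Slc32a1. Slc32a1 and Slc17a9 are on the same chromosome, 22.1 Mb apart, with 74 boundaries between them.

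With strong and weak boundaries both counted, the monoamine transporter genes lay in intervals of like length with boundaries of unlike strength. Slc18a1 encodes the form known mainly from endocrine cells, and its TSS is at chromosome 8, 69089235 (reverse strand; gene 69037711 to 69089235). Its left boundary was strong (0.782; 69065001 to 69070000), lay 19.2 kb downstream of the TSS, and overlapped coding sequence of Slc18a1 itself. The gene body of Slc18a1 thus crossed a boundary. That of Slc17a8 overlapped one without crossing it, since its 5′ end lay inside the bin. In all, 16.2% of protein-coding genes had a boundary over the gene body. The right boundary was strong as well (0.715; 69230001 to 69235000), in untranslated exon sequence of Zfp930. The interval of 160 kb held 3 other protein-coding TSSs. The nearest, only 0.589 kb away on the opposite strand, was that of Atp6v1b2, which encodes a subunit of the proton pump on which vesicular transporters depend. The others were Lzts1 (95 kb) and Zfp930 (120 kb). A CTCF consensus 2.69 kb left of the left boundary lay in a soft-masked repeat and pointed away from the interval.

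Slc18a2, the form of dopamine, noradrenaline and serotonin neurons, has its TSS at chromosome 19, 59260896 (forward strand; gene 59260896 to 59296012). The nearest boundary was weak (0.462; 59225001 to 59230000), 30.9 kb upstream, and overlapped a coding exon of the potassium channel gene Kcnk18. The right boundary was strong (1.40; 59405001 to 59410000), intergenic, 144 kb away and 48.4 kb from the TSS of Emx2, a homeodomain factor of forebrain development. The interval of 175 kb held 2 other protein-coding TSSs, those of Rps12-ps3 (61.4 kb) and Pdzd8 (84.9 kb). Rps12-ps3 has the symbol of a pseudogene and is counted because GENCODE M21 classes it as protein-coding. Between strong boundaries alone the interval of Slc18a2 was 660 kb, against 160 kb for Slc18a1. Both consensus matches near the weak boundary were on the forward strand, 9.63 and 9.68 kb to its right, and pointed towards Slc18a2. Inside the gene, 6.23 kb from the TSS, lay VISTA enhancer mm447 (59267128 to 59268278), for which RefSeq records midbrain activity in 10 of 12 transgenic embryos.

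Slc18a3, the acetylcholine transporter gene, shared its interval with Chat, which encodes the enzyme that makes acetylcholine. The gene is known to lie within the first intron of Chat, and its TSS (chromosome 14, 32464850, reverse strand; gene 32462438 to 32464850) was 1.14 kb from that of Chat. The nearest boundary was strong (1.51; 32495001 to 32500000), rank 630 of 7610. It was intergenic, 30.2 kb upstream of Slc18a3 and 29.0 kb from the TSS of Chat, on the side of the DNA repair gene Ercc6. The left boundary was strong (0.932; 32085001 to 32090000), 375 kb away, and overlapped exons of Dph3 and Oxnad1. The interval of 405 kb was the longest of the 8 and held 8 protein-coding TSSs. Beside Slc18a3 and Chat these were 1700024G13Rik (76.5 kb), Ogdhl (143 kb), Parg and Timm23 (263 kb each), Ncoa4 (305 kb) and Msmb (323 kb). No exact match to the CTCF consensus lay within 10 kb of either boundary.

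**Figure D1:**
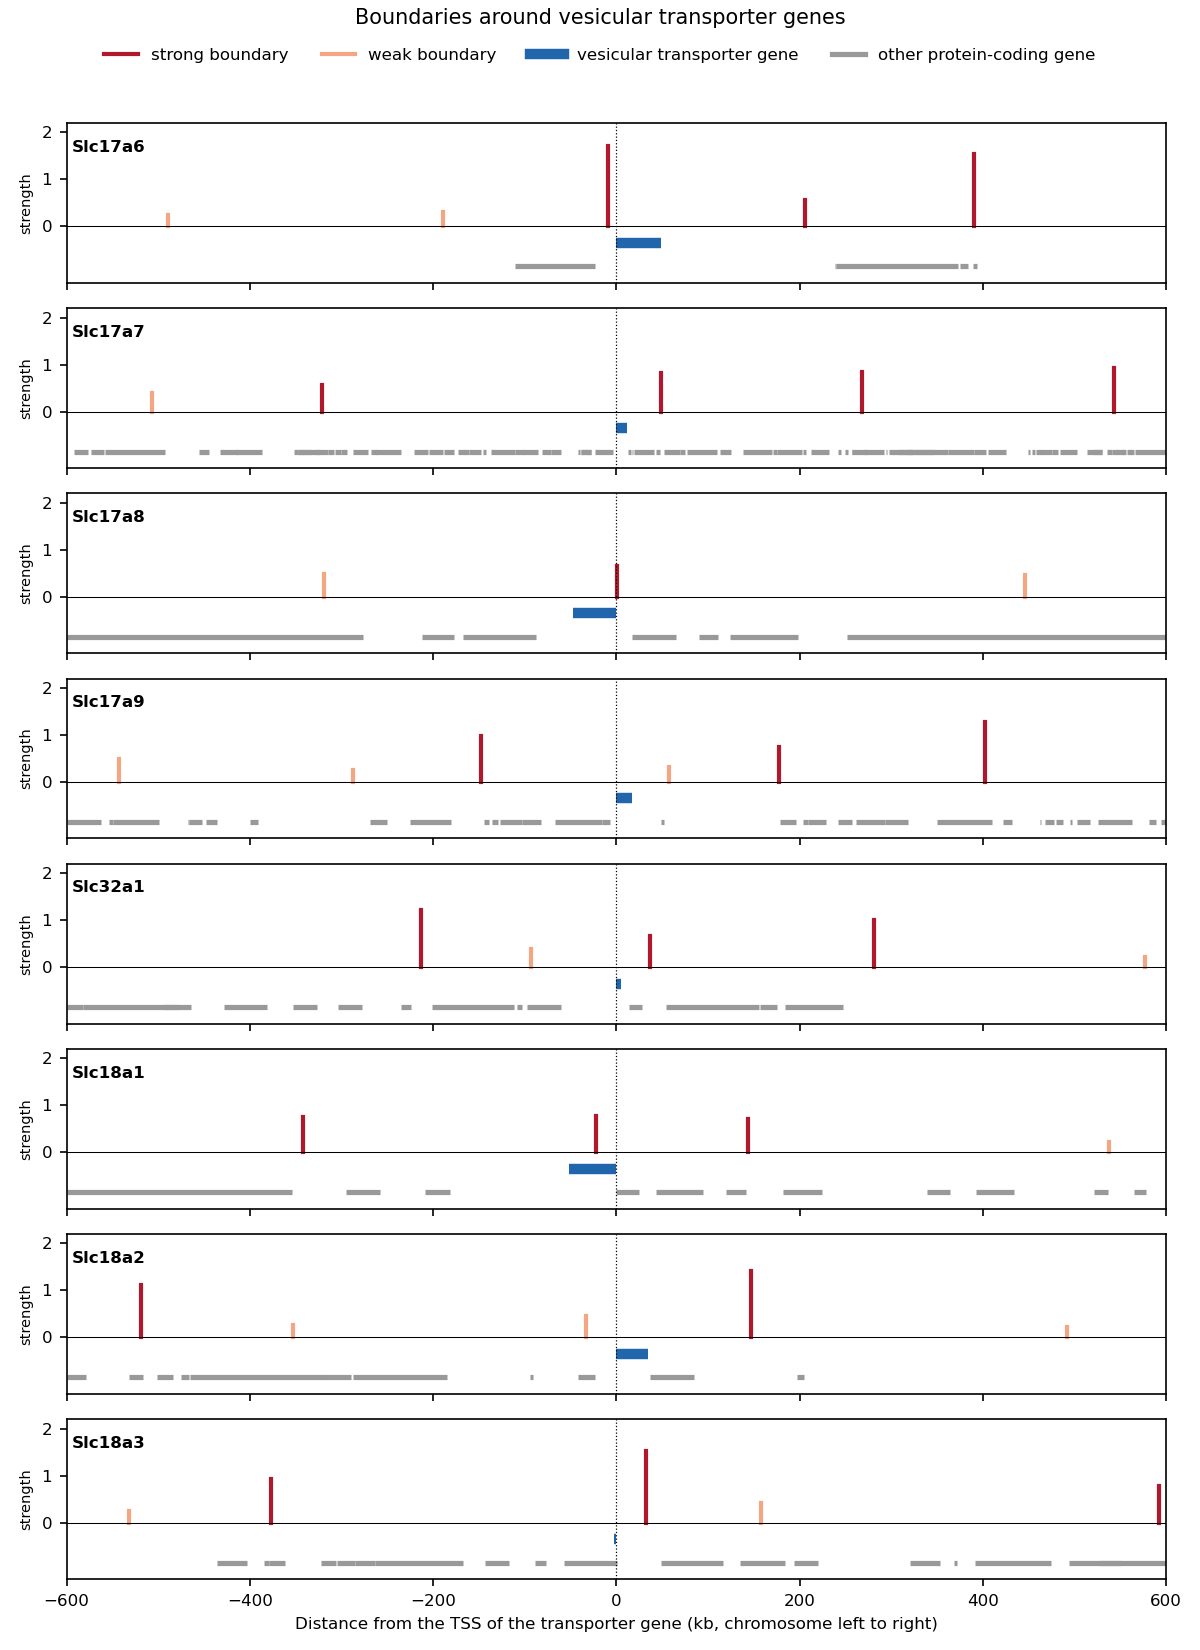
Boundaries within 600 kb of each vesicular transporter TSS: the horizontal axis is the distance from the TSS in kb, bar height is the boundary strength (the authors' score), blue is the transporter gene and grey the other protein-coding genes. The tallest bar next to a TSS is that of Slc17a6 (1.71), and the boundary of Slc17a8 (0.659) stands on the TSS itself.

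Most of the 8 TSSs lay closer to a boundary than 50 kb. Within 10 kb of a boundary bin were 2 of 8 TSSs (25.0%, exact 95% binomial interval 3.19 to 65.1%), those of Slc17a6 and Slc17a8, against 14.3% of all protein-coding TSSs and 14.5% of 365 solute carrier genes, the transporter superfamily the 8 belong to. That share was not distinguishable from the background with 8 genes, and the interval covers counting error only. The next gene outside the window was Slc18a1 at 19.2 kb. Within 25 kb were 3 of 8, against 26.5% of all genes. Within 50 kb were 7 of 8, against 45.3% of all protein-coding TSSs and 52.6% of solute carrier genes. The same 2 genes were within 10 kb of a strong boundary, against 9.30% of all genes, and 6 of 8 were within 50 kb of one, against 29.0%. Each of the 8 distances, from 0 to 54.7 kb, was below the median of all protein-coding genes (56.6 kb), and 7 of 8 were below the solute carrier median of 47.0 kb. The median over the 8 was 30.5 kb. The list was chosen with earlier results known, so these counts are descriptions with no test.

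**Figure D2:**
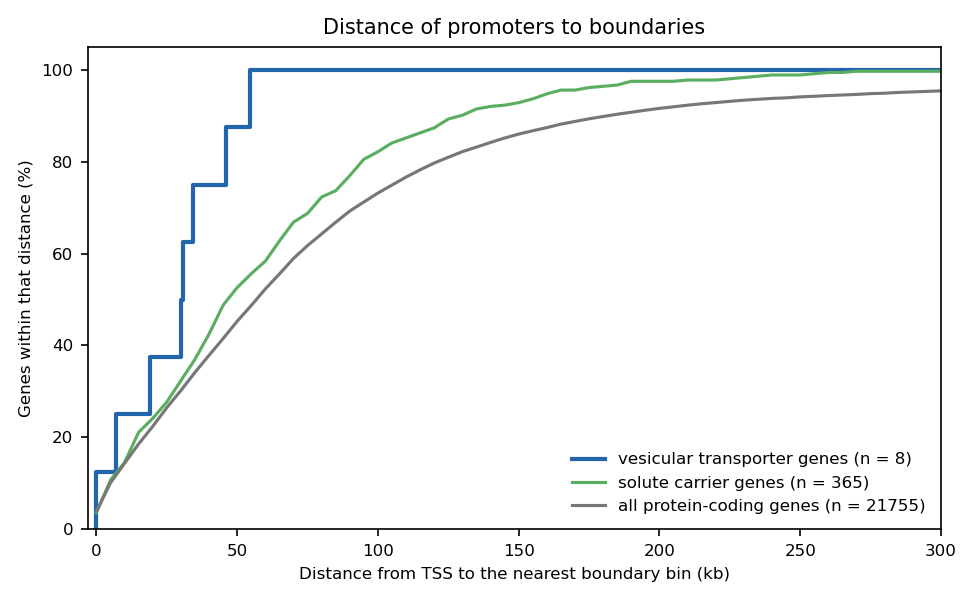
Cumulative share of genes (vertical axis, percent) by distance from the TSS to the nearest boundary bin (horizontal axis, kb) for the 8 vesicular transporter genes, the solute carrier genes and all protein-coding genes. The 8 genes reach 100% at 54.7 kb, where the other curves are near their medians of 47.0 and 56.6 kb.

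The nearest boundary was strong for 6 of 8 genes, against 63.3% of all protein-coding TSSs, and weak for Slc17a9 and Slc18a2. The centre of the nearest boundary lay upstream of the TSS in 4 of 8 (Slc17a6, Slc17a8, Slc18a2 and Slc18a3), against 51.9%. For Slc17a8 the bin itself held the TSS. Both flanking boundaries were strong for 4 of 8 (Slc17a6, Slc17a7, Slc18a1 and Slc18a3), against 37.2%. Among the 17 boundaries 12 were strong (70.6%), against 52.9% of the whole list, and the median strength was 0.670. Of the 17, 7 were intergenic, 8 overlapped an exon of a protein-coding gene and 2 lay in introns alone. For these classes no share over the whole list was available, so whether the counts are usual for it is not known. A protein-coding TSS lay within 10 kb of 9 of the 17, against 31.1% of all boundaries. These 17 were picked because they flank genes, whereas the whole list was not.

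A CTCF consensus lay within 10 kb of 5 of the 17 boundaries, against 24.4% of the whole list. In every case this was the boundary nearest to the transporter gene, so that 5 of 8 nearest boundaries had one (Slc17a6, Slc17a9, Slc32a1, Slc18a1 and Slc18a2), against 27.7% of the nearest boundaries of all protein-coding TSSs. There were 8 matches at these 5 boundaries. Of these, 7 pointed into the interval that held the transporter TSS, the exception being the match at Slc18a1, against 47.9% of 15048 pairs of a protein-coding gene and a match at a boundary flanking its TSS. Away from their own boundary pointed 6 of the 8, against 51.2% of 2283 matches at all boundaries. Of the others, 1 lay in the bin, and 1, right of the Slc32a1 boundary, pointed towards it. Matches at a shared boundary are not independent of each other. Those at Slc18a2 lay 9.63 and 9.68 kb from the bin, just inside the 10 kb window, and no other window was tried. Boundaries with no match, such as the strong one beside Slc18a3, lack these letters in this window, which leaves CTCF binding there unmeasured.

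Intervals around the 8 genes ran from 125 to 405 kb with a median of 205 kb. The median around all protein-coding TSSs was 270 kb (interquartile range 190 to 395 kb) and around solute carrier genes 245 kb. The genes of the GABA, nucleotide and monoamine transporters and Slc17a6 had intervals below the all-gene median, which made 5 of 8. Those of Slc17a8 (315 kb), Slc17a7 (365 kb) and Slc18a3 (405 kb) were above it. The 8 intervals held between 1 and 29 protein-coding TSSs, with a median of 4, as for solute carrier genes and against 6 for all genes. Of the 16 neighbouring TSSs on either side of the 8 genes, 5 were separated from the transporter by a boundary, against 26.7% of all neighbouring pairs. Those 5 neighbours were Ano5, Gas2, Scyl2, Arhgap40 and Kcnk18. An enhancer annotated by RefSeq lay in the interval of 2 of 8 genes, against 9.00% for all protein-coding genes. RefSeq's enhancers cover few loci.

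**Figure D3:**
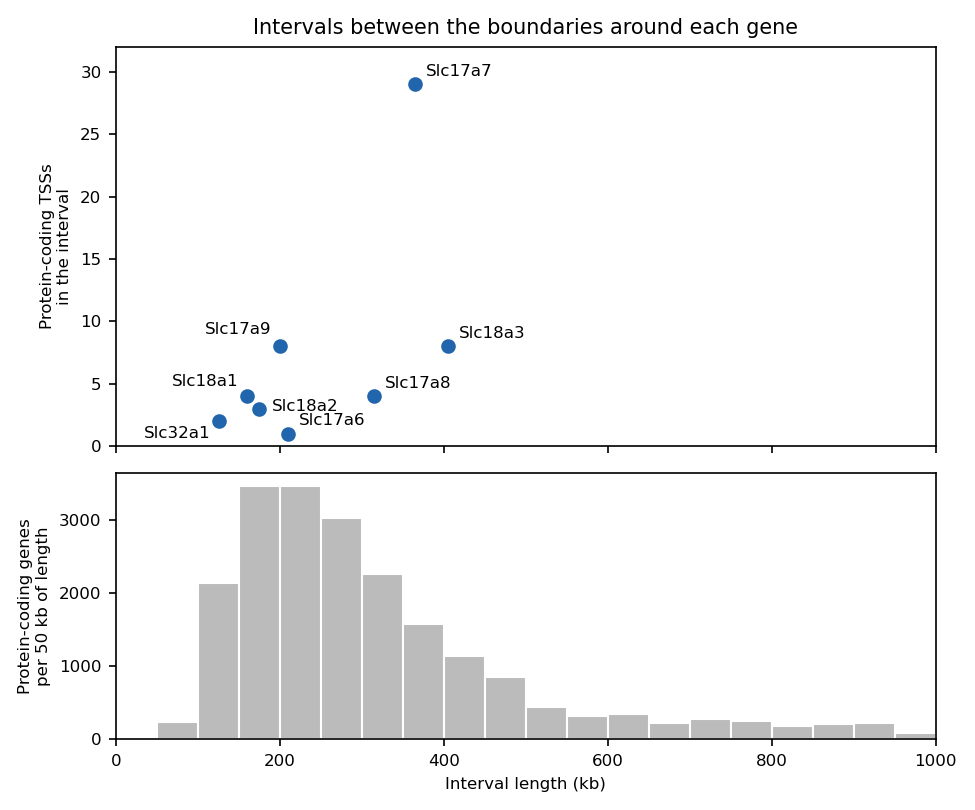
Upper panel, number of protein-coding TSSs (vertical axis) against interval length in kb (horizontal axis) for the 8 vesicular transporter genes; lower panel, interval lengths of all protein-coding genes up to 1000 kb, as genes per 50 kb of length. Slc17a7 stands apart with 29 TSSs in 365 kb, and Slc32a1 has the shortest interval at 125 kb, with strong and weak boundaries both counted.

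RefSeq promoters were found for 6 of the 8 genes (8 promoters). Slc17a9 and Slc18a1 had none in the table. GC content was 67.0% in Slc18a3, 64.0% in Slc18a2, 63.7% in Slc17a7 and 63.3% in Slc32a1, against a median of 56.3% over 21237 protein-coding promoters. It was lower in Slc17a8 (58.0% and, at the inner start, 45.0%) and Slc17a6 (53.7% and 43.0%), so the promoters nearest to boundaries were not the richest in GC. The letters GGGCGG, the core of the site of Sp factors, were in 4 of the 8 promoters on either strand, those of Slc17a6, Slc17a7, Slc18a2 and Slc18a3, against 46.2% of all. CCCNNGGG, a core of the site of Ebf factors, was in 3 (Slc17a8, Slc18a3 and Slc32a1), against 15.6%. TAATTA, a homeodomain core, was in 2 against 4.53%, both at the inner starts named above. TGACGTCA, a cyclic AMP response element, was in that of Slc18a2, against 2.24%, and TATAAA was in none, against 12.6%. CCCNNGGG, TAATTA and TGACGTCA read the same on both strands. None of these matches shows that a factor was bound.

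Of the genes that make, take up or break down the same transmitters, 1 of 35 in 5 lists had a TSS no more than 10 kb from a boundary bin (2.86%, with an exact 95% interval of 0.0723 to 14.9%), against 14.3% of all protein-coding genes. Of the 36 genes for other vesicle and release proteins and for the proton pump, 8 did (22.2%, 10.1 to 39.2%). This grouping of the lists was made after their counts were known. The share of the 35 also rests on the cut, since the next gene outside it had a distance that rounds to 10 kb. Within 25 kb were 6 of the 35 and 13 of the 36, against 26.5% of all protein-coding genes. Within 50 kb of a boundary bin were 42.9% of the 35 and 47.2% of the 36, against 45.3% of all protein-coding genes. Any annotated transcript start put 2 of 7 glutamate and 4 of 13 monoamine genes within 10 kb, against 18.7% of all protein-coding genes. It put none of the GABA and glycine, acetylcholine and nucleotide genes there, and 4 of 20 vesicle and release and 6 of 16 proton pump genes. Of all 77 genes in 8 lists, the Slc17 and Slc18 relatives included, 9 had a TSS no more than 10 kb from a boundary bin (11.7%, with an exact 95% interval of 5.49 to 21.0%), against the same 14.3% of all protein-coding genes. None of the 7 glutamate genes (exact upper bound 41.0%), 8 GABA and glycine genes (36.9%), 3 acetylcholine genes (70.8%), 4 extracellular nucleotide genes (60.2%) and 6 Slc17 and Slc18 relatives (45.9%) was at one. The farthest of the glutamate list were Glul (135 kb) and Gls2 (111 kb), which make and break down glutamine, and of the GABA and glycine list Gad2 and Abat (113 kb each), which make and break down GABA. Slc5a7, the choline transporter gene, was 231 kb from a boundary and Ache, for the enzyme that breaks down acetylcholine, 87.5 kb, farther than Chat and Slc18a3. Entpd2 (60.9 kb) and Nt5e (92.2 kb), both for enzymes that break down extracellular nucleotides, were the farthest of their list. Slc17a1 (62.3 kb) and Slc17a3 (69.4 kb) were the farthest of theirs. Both lay in the same interval of 160 kb on chromosome 13, which other relatives shared. The 6 relatives are thus not independent of each other, as the exact bound takes them to be. Of the monoamine genes, Maoa, for an enzyme that breaks down monoamines (185 kb), and the dopamine transporter gene Slc6a3 (98.3 kb) lay farthest.

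Genes of the synaptic vesicle and of its proton pump stood at boundaries at shares within their counting error of all genes. Of 20 vesicle and release genes 4 were at one (20%, exact 95% interval 5.73 to 43.7%). These were Syn3 (0 kb, strength 0.281), the calcium sensor genes Syt1 (0 kb, 0.483) and Syt2 (1.68 kb, 1.04), and Sv2c (7.42 kb, 0.330), and of these the boundary at Syt2 alone was strong. Cplx1 (210 kb) and Snap25 (172 kb), for parts of the fusion machinery, were the farthest. Of 16 proton pump genes 4 were at a boundary (25.0%, exact interval 7.27 to 52.4%), each of them strong. These were Atp6v1c1 (0 kb, 0.651), Atp6v0d1 (1.05 kb, 0.509), Atp6v1e1 (2.21 kb, 1.17) and Atp6v0e2 (2.62 kb, 0.601). Atp6v1f (118 kb) and Atp6v1g1 (110 kb) were the farthest. Atp6v1b2, the neighbour of Slc18a1, was 18.6 kb from their common boundary.

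**Figure D4:**
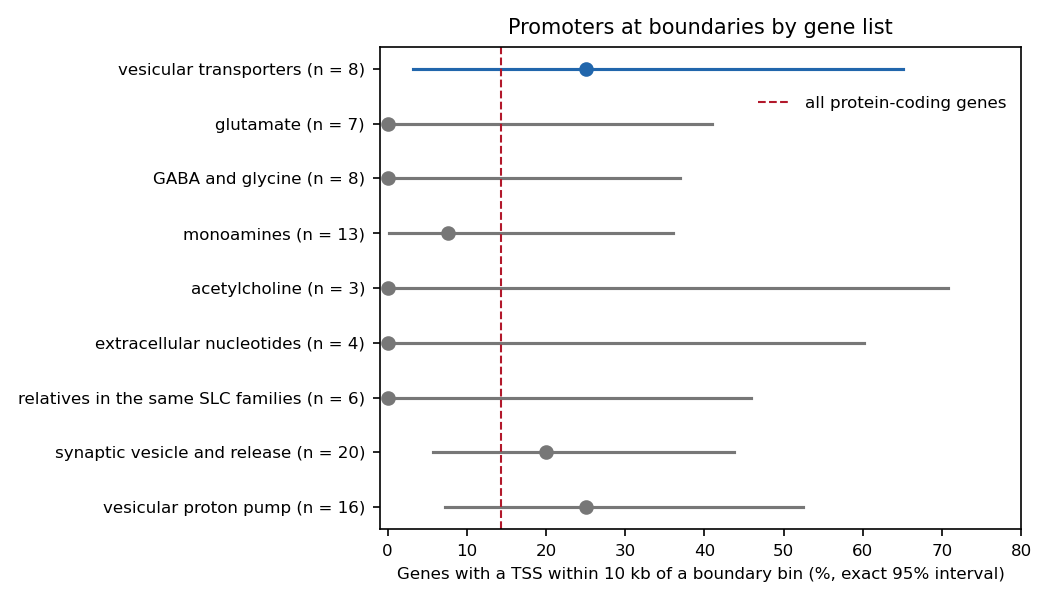
Share of genes with a TSS within 10 kb of a boundary bin (horizontal axis, percent) for the vesicular transporter genes and 8 lists of genes of the same transmitters and vesicles. Points are shares, bars are exact 95% binomial intervals, the dashed line is all protein-coding genes (14.3%), and every interval includes that line.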

How the data were processed

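The study measured chromosome contacts by in situ Hi-C in 2 replicates of 1 group. Per the labels' design text, the authors merged the pairs of both replicates, built 1 contact matrix on GRCm38 and called boundaries from it. The deposited boundary strength is a score computed by the authors for each 5 kb bin, and the class (strong or weak) was deposited beside it. For the caller, its version and its window, the sources used here give nothing, and the depth behind each boundary is unknown. Each row was given as a bin with 1-based coordinates.

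A TSS was the 5′ end of a protein-coding gene in GENCODE M21. Distance ran to the nearest edge of a bin (0 inside it), and a gene was at a boundary within 10 kb. An interval ran between the bins on either side of the TSS. Where a bin held the TSS, the interval was the one into which the gene runs. For 204 of 21755 genes outside the first or last boundary no interval was defined. Solute carrier genes were taken by symbol, and sequences came from RefSeq GRCm38.p6. The CTCF consensus was searched on both strands of the whole build. Distances and intervals were tested on simulated data with known answers. Intervals of shares are exact 95% binomial intervals. Scripts ran in Python 3.11.15 with pandas 2.3.3, numpy 2.4.6 and scipy 1.17.1, and figures were drawn with matplotlib 3.10.9.

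Named genes were all 8 transporters, their neighbours and interval genes (all up to 8, otherwise the nearest 4), genes at flanking boundaries, and of each list those at a boundary and the 2 farthest. A gene that this rule names is not reported here. Members and lists were chosen with earlier results of these data known. No test was made, because the list has no replicates.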

Additional observations from a re-analysis of the deposited data

How the results depend on the processing

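No paired analysis was possible because the study has a single group, and the pooled call let neither replicate be omitted. Of 19 alternatives, 8 left a result alike: counts within 1.5 times, medians equal after rounding. The number of transporter genes at a boundary was 1 inside the bin, 7 within 50 kb, and 2 or 3 otherwise. It was 2 with strong boundaries alone and 2 by distance to the bin centre (12.3% of all protein-coding genes). With any annotated transcript start it was 3 (18.7% of all protein-coding genes). The third gene was Slc18a1, with another start 5.51 kb from the boundary inside it. The median distance was 32.2 kb to strong boundaries (101 kb for all protein-coding genes, against 56.6 kb with both classes) and 33.0 kb to bin centres. With strong boundaries alone the median interval was 342 kb (465 kb for all protein-coding genes) and the median strength 0.932. The median interval did not move when the span of Slc17a8 was taken as 760 kb, an alternative chosen after seeing the data. The 77 listed genes gave 3 inside a bin, 22 within 25 kb, 36 within 50 kb, 5 at strong boundaries and 17 with any transcript start. The shares of all protein-coding genes at these settings were 3.86%, 26.5%, 45.3%, 9.30% and 18.7%, in that order. The wider and narrower windows differ from the 10 kb count by construction.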
